A study of Mus musculus with 3 samples.

Results

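Genes for 8 transcription factors of the early cranial and pharyngeal mesoderm were followed through mouse embryos in which Wnt secretion was disrupted in the Mesp1 lineage: Ebf1, Ebf2, Ebf3, Foxl2, Otx2, Tlx1, Lhx2 and Msc. They were chosen by name, with earlier results of these data known. They are 8 of 51923 genes in the deposited count matrix (35403 genes with at least 1 UMI, a unique molecular identifier that counts captured transcripts). All 8 had UMIs, and in the fits below between 6 and 8 of them passed the filter on low counts.

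The embryos carried Mesp1-Cre, which is active in nascent mesoderm, and the Ai9 reporter, which turns red where Cre has acted. All groups were on C57BL/6. Controls were Mesp1-Cre; Ai9; Wls fl/+ and so had lost 1 Wls allele in the lineage. Mutants were Mesp1-Cre; Ai9; Wls fl/fl. Wls encodes a carrier that Wnt ligands need to leave the cell. Red cells were sorted after embryos had been tagged with MULTI-seq lipid barcodes, pooled, and captured with 10x Chromium v3 in 3 sequencing runs. The replicate was the barcode sample: all cells with the same barcode from the same run, at 1 stage and of 1 genotype. At embryonic day 8.0 (E8.0) there were 3 control and 3 mutant samples (1549 and 1653 cells), all in run 1. At E8.5 there were 2 control samples and 1 mutant sample (2542 and 487 cells), all in run 2. At E9.5 there were 6 control and 6 mutant samples (5733 and 2785 cells) spread over 3 runs, and 1 sample of 28 cells was labelled E7.5 control. Whether a barcode held 1 embryo or several is not given in the sources used here, so a p-value measures the spread between barcode samples.

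The 22 barcode samples held 14777 cells and 331587989 UMIs, with a median of 21739 UMIs per cell. Run 3 was the shallowest (median 11866 UMIs against 23112 in run 1 and 23555 in run 2), and 23 cell barcodes occurred in more than 1 run. Sample size ranged from 6 to 2508 cells: E9.5 control Bar6 had 6 cells and E8.5 control Bar2 had 34, so results at E9.5 were also computed without samples of under 50 cells. Wls transcripts, which check the genotype labels, lay between 35.9 and 65.4 CPM (UMIs scaled to a common library total) in the control samples of E8.0 to E9.5 and between 3.72 and 14.2 CPM in the mutant samples, with no overlap. The sample labelled E7.5 control lay at 14.1 CPM (7 UMIs, exact Poisson interval 5.67 to 29.0), inside the mutant range and under every other control. Stage and genotype cannot be told apart for this sample, since it was the only one of E7.5. Among the fits over all cells it entered only that of all stages. That fit has a term for each stage, so a stage with 1 sample carries no weight in the genotype change. Leaving the sample out was thus bound to change little and does not check its label. Foxl2 had a log2 change of −1.07 (edgeR adjusted p = 0.0202) without it and −1.08 with it. Wls fell by 2.39 on the log2 scale at E8.0 (edgeR adjusted p = 0.0479) and by 2.07 at E9.5 (edgeR adjusted p = 3.07e-08). The sorted cells also held cells with markers of other tissues: neural-like clusters held 304 cells and endoderm or epithelium-like clusters 158.

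As background, mesoderm of the head does not form somites. It gives rise to skull and meningeal mesenchyme, eye and jaw muscles, and vessels, and with the pharyngeal core it shares a progenitor field with the heart. The EBF proteins are helix-loop-helix factors known from blood, fat, bone and muscle development. The other members belong to the forkhead (Foxl2), homeobox (Otx2, Tlx1), LIM-homeobox (Lhx2) and basic helix-loop-helix (Msc) families, and several mark precursors of the head and pharyngeal muscles or of organs that form next to the pharynx.

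In the GENCODE M21 annotation on GRCm38, Ebf1 lies on chromosome 11 (44617317 to 45008091, plus strand), Ebf2 on chromosome 14 (67233292 to 67430918, plus) and Ebf3 on chromosome 7 (137193673 to 137314445, minus). Foxl2 lies on chromosome 9 (98955288 to 98958543, plus), Otx2 on chromosome 14 (48657677 to 48673819, minus) and Tlx1 on chromosome 19 (45150680 to 45156943, plus). Lhx2 lies on chromosome 2 (38339281 to 38369733, plus) and Msc on chromosome 1 (14753346 to 14755992, minus). All 8 are protein-coding. Antisense genes overlap Foxl2 by 12 bases, Otx2 by 5112 and Tlx1 by 2887, and whether reads were counted by strand is not given in the sources used here.

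The sequences at the start sites of Foxl2 and Ebf1 are shown because the E9.5 results below turn on these genes, and that of Ebf3 for comparison with a paralog. They come from RefSeq on GRCm38.p6 and hold 250 bases before and 50 after the start annotated there. The RefSeq starts of Foxl2 and Ebf1 lie downstream of the GENCODE starts given above, so these spans lie inside the GENCODE genes, while the Ebf3 span crosses the GENCODE start. Entries were found for 6 of the 8 members (11 promoters in all; Ebf2 and Msc are named only). Capitals mark matches to 2 of the 6 motifs searched on both strands: the EBF motif TCCCNNGGG and the TCF/LEF core CTTTGA, each read from either strand. TCF/LEF factors carry the Wnt signal to DNA. The spans are Foxl2 chr9:98955357-98955656 (plus strand), Ebf1 chr11:44617850-44618149 (plus) and Ebf3 chr7:137314396-137314695 (minus).
Foxl2 promoter: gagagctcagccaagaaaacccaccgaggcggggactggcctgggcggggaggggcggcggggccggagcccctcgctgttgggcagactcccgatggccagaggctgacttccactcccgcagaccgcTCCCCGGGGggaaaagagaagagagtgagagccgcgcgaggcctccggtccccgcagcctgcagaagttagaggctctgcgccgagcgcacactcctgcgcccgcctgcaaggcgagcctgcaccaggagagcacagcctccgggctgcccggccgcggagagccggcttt
Ebf1 promoter 1: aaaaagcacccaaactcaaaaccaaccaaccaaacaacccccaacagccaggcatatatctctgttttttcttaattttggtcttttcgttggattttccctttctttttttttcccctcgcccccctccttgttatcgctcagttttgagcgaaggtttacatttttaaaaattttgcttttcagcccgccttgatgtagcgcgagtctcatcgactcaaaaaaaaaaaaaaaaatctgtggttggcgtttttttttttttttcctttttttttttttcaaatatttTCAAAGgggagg
Ebf3 promoter: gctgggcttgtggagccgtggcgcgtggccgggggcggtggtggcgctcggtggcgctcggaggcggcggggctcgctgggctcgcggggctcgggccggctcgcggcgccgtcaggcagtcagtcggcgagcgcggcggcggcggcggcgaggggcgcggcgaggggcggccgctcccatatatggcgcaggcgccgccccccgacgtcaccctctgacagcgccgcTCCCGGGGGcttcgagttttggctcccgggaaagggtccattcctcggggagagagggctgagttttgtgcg

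The Foxl2 sequence held 1 EBF match, which starts at position 130 of the 300 bases, and no TCF/LEF match. The Ebf3 sequence held 1 EBF match, at position 229, and no TCF/LEF match. The first Ebf1 promoter held no EBF match and 1 TCF/LEF match, at position 289, past the start site. A second Ebf1 promoter in the table, not shown, held no match to any of the 6 motifs. Among 32851 promoters of the same length, 6.56% held the EBF motif and 16.0% the TCF/LEF motif. The other motifs were TAATCC for OTX factors (7.06%), TAATTA for LIM and TLX homeobox factors (5.29%), CAGCTG for E-box factors such as Msc (16.3%) and TGTTTA for forkhead factors (13.4%), and none of these was found in the 3 sequences shown. The Foxl2 and Ebf3 sequences were rich in GC (71.3% and 77.0%) and that of Ebf1 was not (36.7%), against a median of 52.7% over all promoters. A match is a run of letters and shows no binding.

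The members were detected unevenly. Ebf1 had 22026 UMIs in 35.3% of all cells, Ebf2 4784 in 16.1% and Ebf3 4570 in 19.7%. Tlx1 had 3799 UMIs in 7.73% of cells, Lhx2 3077 in 8.72% and Foxl2 2131 in 6.24%. Otx2 (1349 UMIs, 4.55% of cells) and Msc (627 UMIs, 1.99%) were the sparsest. Transcripts of different genes can be captured unequally, so levels are compared within a gene only. In 2229 blood-like cells, which served as a rough measure of stray RNA (median 28220 UMIs per cell), the shares were 7.85% for Ebf1, 0.852% for Ebf2, 1.70% for Ebf3, 0.852% for Foxl2, 0.493% for Otx2, 0.852% for Tlx1, 0.897% for Lhx2 and 0.224% for Msc. The Ebf1 share ran from 2.69% to 11.3% between the blood-like clusters. Of 27 Otx2 UMIs in these cells, 22 lay in 1.15% of the 522 cells of 1 cluster. Whether these UMIs are stray RNA was not tested.

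At E8.0 no member differed between the genotypes past the threshold. Ebf1, the first-described EBF factor, lay at 34.9, 44.0 and 53.3 CPM in the controls and at 47.8, 63.9 and 69.1 CPM in the mutants, overlapping groups. Its paralog Ebf2 lay at 6.93, 11.5 and 12.1 CPM in controls against 12.9, 12.9 and 15.8 CPM in mutants. Ebf3 lay at 5.67, 8.37 and 9.88 CPM against 10.1, 10.6 and 10.7 CPM. The mutants lay higher in both cases, and neither gene had an unadjusted p under 0.05 in edgeR. The share of all genes that separate so was not counted. Foxl2, a forkhead factor known from the eyelid and ovary and from cranial mesenchyme, lay at 5.70, 5.85 and 8.75 CPM in controls and at 5.16, 5.99 and 11.1 CPM in mutants. Otx2, which patterns the anterior head, lay at 5.76, 9.71 and 11.6 CPM against 5.82, 11.2 and 13.9 CPM. Both pairs of groups overlapped along most of their range.

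Tlx1, needed for the spleen and expressed in pharyngeal arches, lay at 1.62, 5.19 and 7.56 CPM in E8.0 controls and at 8.22, 10.3 and 10.5 CPM in mutants. Lhx2, a LIM-homeobox factor of eye, limb and pharyngeal muscle precursors, lay at 2.07, 3.69 and 3.72 CPM against 3.33, 5.09 and 5.44 CPM. Msc (musculin), a repressor in branchial muscle precursors, had 16 UMIs in the 3 controls and 24 in the 3 mutants and did not pass the count filter. None of the 7 members tested passed an adjusted p under 0.05 in edgeR, where 0.0244% of 16416 genes passed, and none had an unadjusted p under 0.05. With DESeq2 none passed either. The 7 fitted changes (mutant over control) were all above 0, from 0.03 for Foxl2 to 0.90 for Tlx1 (SE 0.42, edgeR adjusted p = 0.510; 0.53 without control Bar24 and 1.40 without control Bar26), with a median of 0.35 against 0.01 over all genes tested. The sign for Foxl2 turned without blood-like and endothelial-like cells (−0.10), and its interval ran from −0.58 to 0.64. Head mesenchyme markers summed to 534 ± 64.8 CPM in E8.0 controls and 665 ± 52.1 CPM in mutants, and cardiomyocyte markers to 2033 ± 549 and 3641 ± 53.1 CPM (SD, n = 3 and 3). Blood markers went the other way, at 18125 ± 16154 CPM in controls and 10549 ± 5652 CPM in mutants, with a median log2 change of −1.04 and none of 6 called, and blood-like cells made up 23.3 ± 11.9% of control and 9.66 ± 5.56% of mutant cells (SD, n = 3 and 3). The fit was repeated without blood-like and endothelial-like cells, as given for Foxl2 above. The part of head mesenchyme cells and cardiomyocytes in the members' values was not tested.

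**Figure D1:**
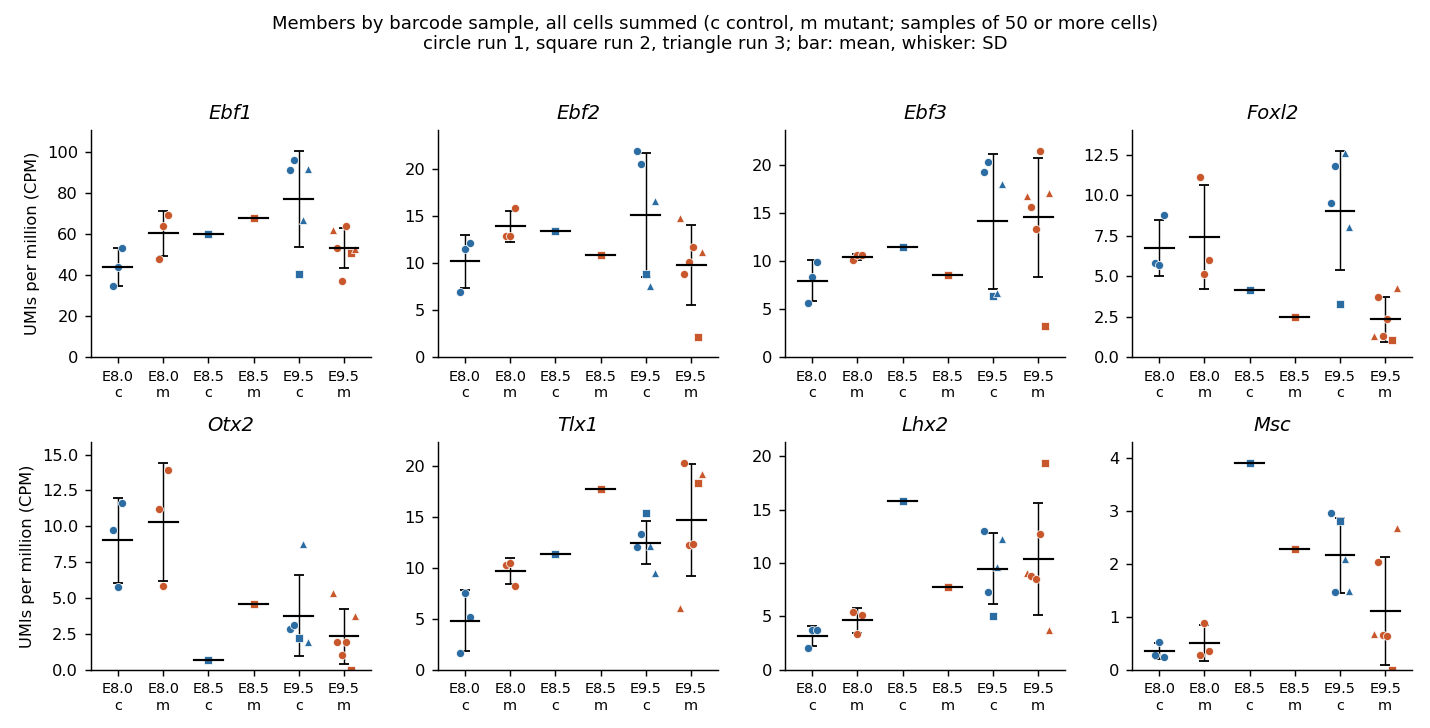
Level of each member in each barcode sample of 50 or more cells, all cells summed, in CPM on a linear axis from 0, by stage and genotype (blue control, orange mutant; circles run 1, squares run 2, triangles run 3). Horizontal bars are means and whiskers 1 SD. Foxl2 in the E9.5 mutants lies at or under 4.27 CPM, while 4 of the 5 controls shown lie at 8.05 CPM or above.

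At E9.5 Foxl2, Ebf2 and Ebf1 were lower in mutants, and the other 5 members did not pass the test. Foxl2 had 1115 UMIs in the 6 control samples and 128 in the 6 mutant samples. Its control levels ran from 0 in the 6-cell sample through a median of 8.79 to 12.6 CPM, and its mutant levels from 1.08 through 1.85 to 4.27 CPM. The groups overlapped only through control Bar6 (0 CPM) and control Bar4 (3.29 CPM). Foxl2 fell by 2.04 on the log2 scale (SE 0.29, edgeR adjusted p = 0.000639), from a mean of 7.54 ± 4.96 to 2.35 ± 1.36 CPM (SD, n = 6 and 6).

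Within run 1 and within run 3, Foxl2 lay lower in the mutants than in the controls. These groups hold few samples, and the share of all genes that separate so was not counted. In run 1 the controls lay at 9.52 and 11.8 CPM and the mutants at 1.31, 2.35 and 3.72 CPM. In run 3 the controls lay at 8.05 and 12.6 CPM and the mutants at 1.34 and 4.27 CPM. In run 2 the larger control lay at 3.29 CPM and the 57-cell mutant at 1.08 CPM, which rests on 1 UMI. Foxl2 stayed past the threshold when any 1 of the 12 samples was left out (log2 change −2.34 to −1.76), without samples of under 50 cells (−2.04, edgeR adjusted p = 0.00132) and in run 1 alone (−2.05, edgeR adjusted p = 0.0252).

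Ebf2, which acts with Ebf1 in mesenchymal lineages, ran from 7.44 through a median of 12.7 to 21.9 CPM in E9.5 controls and from 2.16 through 10.6 to 14.8 CPM in mutants. The groups overlapped, and the highest 3 of the 12 samples were controls. Ebf2 fell by 0.79 on the log2 scale (SE 0.18, edgeR adjusted p = 0.0143). The call was lost without mutant Bar19 (edgeR adjusted p = 0.0540), control Bar22 (0.0804) or control Bar23 (0.0676). Within run 1, Ebf2 lay at 20.5 and 21.9 CPM in controls and at 8.88, 10.1 and 11.7 CPM in mutants. Within run 3 the order was not kept: the controls lay at 7.54 and 16.6 CPM and the mutants at 11.2 and 14.8 CPM.

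Ebf1 ran from 40.5 through a median of 78.8 to 95.8 CPM in E9.5 controls and from 36.9 through 53.0 to 63.9 CPM in mutants, with 4 of 6 controls above every mutant. It fell by 0.60 on the log2 scale (SE 0.16, edgeR adjusted p = 0.0329). This was the weakest of the 3 calls: it was lost in 8 of 12 fits that left out 1 sample (without mutants Bar8, Bar10, Bar19, Bar20 and Bar21 or controls Bar9, Bar22 and Bar23, with log2 changes of −0.43 to −0.62), with DESeq2 (−0.50, adjusted p = 0.0785) and in run 1 alone (−0.82, edgeR adjusted p = 0.0585). The direction was the same in each of these fits.

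Ebf3, the third EBF paralog, lay at 13.0 ± 6.82 CPM in E9.5 controls and 14.6 ± 6.18 CPM in mutants, with a log2 difference of −0.12 (interval of 2 SE, −0.48 to 0.24). The fitted value, which is adjusted for run and weighs samples by their counts, points the other way from these unweighted means. What turned the sign was not tested. Tlx1 lay at 11.6 ± 2.80 and 14.7 ± 5.51 CPM (0.23, −0.21 to 0.67), and Lhx2 at 7.89 ± 4.88 and 10.4 ± 5.27 CPM (0.00436, −0.60 to 0.61). All 3 overlapped between the genotypes. Msc lay at 1.80 ± 1.09 CPM in controls and 1.11 ± 1.02 CPM in mutants, with a log2 difference of −0.86 (SE 0.41, edgeR adjusted p = 0.201), which was −1.38 without mutant Bar19 and −0.48 without control Bar22. Otx2 ran from 1.93 through 2.98 to 29.7 CPM in controls, where the highest value is 4 UMIs in the 6-cell sample, and from 0 through 1.92 to 5.37 CPM in mutants (log2 difference −0.59, SE 0.44, edgeR adjusted p = 0.438). That difference turned to 0.02 without neural-like and endoderm or epithelium-like cells, and ran from −0.97 without control Bar9 to −0.33 without mutant Bar20. All means are ± SD with n = 6 and 6.

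In all, 3 of 8 members were called lower and none higher at E9.5, where 10.3% of 17227 genes were called in either direction (983 higher and 783 lower). The members' median change was −0.60 on the log2 scale, and the median over all genes was 0.02. The members were chosen with earlier results of these data known, which limits this comparison with all genes. The summed head mesenchyme markers differed little between the groups, at 670 ± 248 CPM in controls (322 to 944) and 646 ± 137 CPM in mutants (383 to 759). Of these 8 markers 1 was called higher and 2 lower. Paraxial mesoderm markers summed to 167 ± 73.6 and 111 ± 44.5 CPM, with 2 of 6 called lower, and proepicardium markers to 45.3 ± 22.7 and 92.7 CPM (57.1 to 134), with 2 of 6 called higher (± SD, n = 6 and 6). Pharyngeal mesoderm markers summed to 110 ± 48.4 and 111 ± 17.4 CPM, with 2 of 6 called lower and 5 of 6 at an unadjusted p under 0.05. Endoderm or epithelium markers summed to 120 ± 75.7 and 241 ± 104 CPM, with none of 6 called and 4 at an unadjusted p under 0.05. Splanchnic mesoderm markers summed to 124 ± 78.0 and 188 ± 42.3 CPM, with 1 of 6 called higher, and neural crest markers to 27.8 to 49.5 CPM in controls and 39.9 to 57.0 CPM in mutants, with none of 4 tested called and 2 at an unadjusted p under 0.05. None of the blood, cardiomyocyte, endothelial, lateral plate or allantois and neural markers was called. No marker of these lists was at 0 in either group. The fit was repeated without blood-like and endothelial-like cells (2582 genes called). It was also repeated without neural-like and endoderm or epithelium-like cells (1930 genes called). The part of the other cell types in the members' values was not tested. In sums over all sorted cells, fewer cells of a type and less RNA per cell cannot be told apart.

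**Figure D2:**
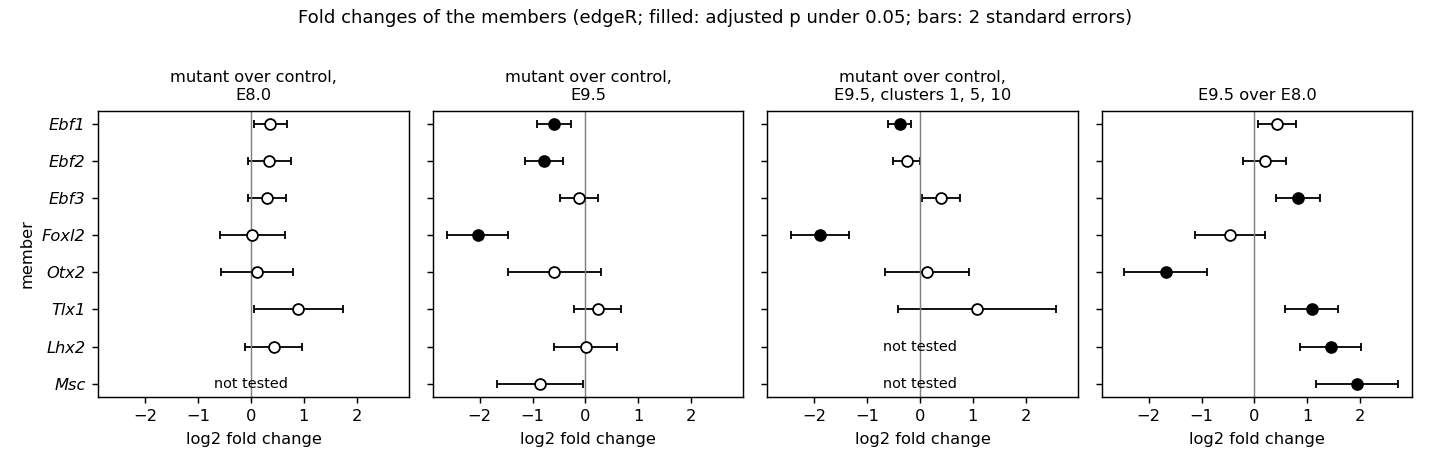
Fitted log2 fold changes of the members in 4 edgeR comparisons, with bars of 2 standard errors; filled points passed an adjusted p of 0.05. Foxl2 is the member farthest below 0 in both E9.5 genotype panels (−2.04 over all cells and −1.89 in clusters 1, 5 and 10), and no member is filled at E8.0.

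Whether the genotype difference itself changed between E8.0 and E9.5 was tested as an interaction. No member passed, where 0.464% of 17872 genes did. Foxl2 came nearest, with a log2 interaction of −2.07 (SE 0.45, unadjusted p = 0.000253, edgeR adjusted p = 0.0532), followed by Ebf2 (−1.13, SE 0.29, edgeR adjusted p = 0.110) and Ebf1 (−0.97, SE 0.27, edgeR adjusted p = 0.138). These 3 had an unadjusted p under 0.05. DESeq2 called 2 members, Foxl2 (−2.11, adjusted p = 0.0101) and Ebf2 (−1.12, adjusted p = 0.0297). In edgeR, Foxl2 also passed in the fits without mutant Bar8 (adjusted p = 0.0438), mutant Bar19 (0.0297), control Bar7 (0.0475) or control Bar9 (0.0475). Ebf1 passed without mutant Bar5 (edgeR adjusted p = 0.0488) and Ebf2 without control Bar7 (0.0336).

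With the stages in 1 model and terms for stage and run, Foxl2 alone among the members was called, lower by a log2 change of −1.08 (SE 0.29, edgeR adjusted p = 0.0192). In that model 10.2% of 20831 genes were called. The call did not hold in run 1 alone (−0.91, edgeR adjusted p = 0.208) or without control Bar23 (−0.93, edgeR adjusted p = 0.0543). The other changes ran from −0.56 for Msc to 0.47 for Tlx1 (SE 0.21, edgeR adjusted p = 0.162).

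The E8.5 comparison has a single mutant sample and no test. The mutant lay under both controls for Foxl2, at 2.48 CPM against 4.14 CPM in the larger control and 6.87 CPM in the 34-cell control. It lay above both for Tlx1 (17.7 against 11.4 and 9.16 CPM), Otx2 (4.58 against 0.685 and 2.29 CPM) and Ebf1 (67.5 against 60.1 and 40.1 CPM). It lay between them for Lhx2 (7.73 against 15.8 and 3.44 CPM), Ebf2 (10.8 against 13.4 and 10.3 CPM) and Ebf3 (8.59 against 11.5 and 8.02 CPM). Msc was at 2.29 CPM in the mutant and at 3.91 and 2.29 CPM in the controls. The 28-cell sample labelled E7.5 control held 22 UMIs of Ebf1 (44.3 CPM), 7 of Ebf2, 3 of Ebf3, 1 of Tlx1 and none of the other members.

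Between stages, with genotype as a covariate, 5 of the 8 members moved. Msc rose from E8.0 to E9.5 by 1.94 on the log2 scale (SE 0.39, edgeR adjusted p = 0.00125), from 0.426 ± 0.247 CPM (n = 6) to 1.46 ± 1.07 CPM (SD, n = 12). Lhx2 rose by 1.44 (SE 0.29, edgeR adjusted p = 0.00132), Tlx1 by 1.08 (SE 0.25, edgeR adjusted p = 0.00400) and Ebf3 by 0.82 (SE 0.21, edgeR adjusted p = 0.00683). Otx2 fell by 1.68 (SE 0.39, edgeR adjusted p = 0.00405): its E8.0 samples lay at 5.76 to 13.9 CPM, and 10 of the 12 E9.5 samples lay under 5.76 CPM. Ebf1 (0.43, edgeR adjusted p = 0.0969), Ebf2 (0.19) and Foxl2 (−0.47, edgeR adjusted p = 0.332) did not pass. The 4 members called higher and 1 called lower compare with 22.5% of 18063 genes called in either direction. Cell type markers moved between the stages too: 5 of 6 proepicardium markers (median log2 change 2.16) and 4 of 6 blood markers (1.84) were called higher and none lower. Of 6 splanchnic mesoderm markers 1 was called higher and 4 lower, of 6 endothelial markers 1 higher and 3 lower, and of 6 paraxial mesoderm markers 2 higher and 1 lower. Neural (2 of 6) and neural crest (2 of 5) markers were called higher only, and lateral plate or allantois markers (2 of 6) lower only. Among head mesenchyme markers 1 of 8 was called higher, among pharyngeal mesoderm markers 1 of 6 higher and 1 lower, among endoderm or epithelium markers 1 of 6 lower, and no cardiomyocyte marker was called. Proepicardium-like cells, which held 29.2% of Lhx2 UMIs, made up none of the E8.0 control cells and 0.0950% of E8.0 mutant cells, against 3.46% and 10.3% at E9.5 (means over samples). The same 5 members passed in each of the 9 other settings, run 1 alone among them. These settings include fits without blood-like and endothelial-like cells and fits without neural-like and endoderm or epithelium-like cells. The part of the other cell types in the members' values was not tested.

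Another EBF gene, the zinc-finger partners of the EBF proteins and a list of head mesoderm genes were measured alongside. Ebf4 was higher in E9.5 mutants by a log2 change of 1.16 (SE 0.25, edgeR adjusted p = 0.0117), and Zfp521, a zinc-finger partner that restrains EBF activity, was lower (−0.35, SE 0.10, edgeR adjusted p = 0.0418). Zfp423, the remaining partner listed, did not pass. Of 24 other head mesoderm genes, which include all 8 head mesenchyme markers, none passed at E8.0 (median log2 change 0.21). At E9.5, 1 was called higher and 6 lower, where 10.3% of all genes were called, with a median of −0.21 against 0.02 over all genes. Alx1, a homeobox factor of cranial mesenchyme, rose from 17.0 ± 8.40 to 32.4 ± 4.86 CPM (log2 change 0.70, edgeR adjusted p = 0.00484). Foxd1, a forkhead factor, fell from 102 ± 45.7 to 62.2 ± 26.2 CPM (−0.93, edgeR adjusted p = 0.0146), and its relative Foxc1 from 56.4 ± 26.8 to 31.2 ± 14.1 CPM (−0.82, edgeR adjusted p = 0.0257; SD, n = 6 and 6). Foxf2 (−1.03) and Six2 (−0.64), a homeobox factor of cranial mesenchyme, also fell.

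Of 7 head genes shared with neural tissue that were tested at E9.5, Zic2 fell (log2 change −0.68, edgeR adjusted p = 0.0361) and the others did not pass. With the stages together, 1 of the 24 head mesoderm genes (Foxf2, −0.57, edgeR adjusted p = 0.0382) and 1 of 8 shared with neural tissue (Hesx1, −0.92, edgeR adjusted p = 0.0109) were called, both lower, where 10.2% of all genes were called. From E8.0 to E9.5, 6 of the 24 rose and 2 fell, where 22.5% of all genes were called. Alx4 (1.43), Myf5 (1.22), Prrx1 (0.84) and Eya1 (0.65) rose on the log2 scale and Foxc2 fell (−0.58). Myf5 commits cells to muscle. Of the 8 head genes shared with neural tissue, 2 rose between the stages, Zic1 by 3.10 and Lmx1b by 2.35, and 1 fell, the anterior head gene Six3, by 2.38 (edgeR adjusted p = 0.000584).

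The cells were clustered without the 8 members, which gave 33 clusters. The transcripts of Foxl2, Ebf2 and Ebf1 lay mostly in clusters 1, 5 and 10, which together held 2047 of 14777 cells. No cluster met the marker rule for a head mesenchyme name, and these 3 are the unnamed clusters in which at least 4 of the 8 head mesenchyme markers were raised, a choice made after seeing the data. Markers of pharyngeal mesoderm (3 of 6 in each) and, in cluster 5, of paraxial mesoderm (4 of 6) were raised there too. Clusters 18 and 19, named paraxial mesoderm-like, also had 4 of 8 head mesenchyme markers raised. They held Ebf1 at 114 and 102 CPM, Ebf2 at 36.9 and 42.7 CPM and Ebf3 at 27.4 and 39.4 CPM, but Foxl2 at 1.65 and 0.318 CPM. Cluster 1 (806 cells) was led by Lum, Parm1 and Bgn, cluster 5 (661 cells) by Fst, Ndufa4l2 and Hlf, and cluster 10 (580 cells) by Crym, Col9a1 and Cxcl12. The 3 clusters held 74.0% of all Foxl2 UMIs, 56.3% of Ebf2, 55.4% of Ebf1, 34.3% of Ebf3 and 33.7% of Otx2, but 4.94% of Msc, 4.71% of Lhx2 and 2.21% of Tlx1. Of their cells 89.2% had an Ebf1 UMI, 57.7% an Ebf2 UMI, 46.2% an Ebf3 UMI, 28.6% a Foxl2 UMI and 14.2% an Otx2 UMI, at a median depth of 20977 UMIs per cell. The shares in blood-like cells given above are lower for each of the 8 members.

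**Figure D3:**
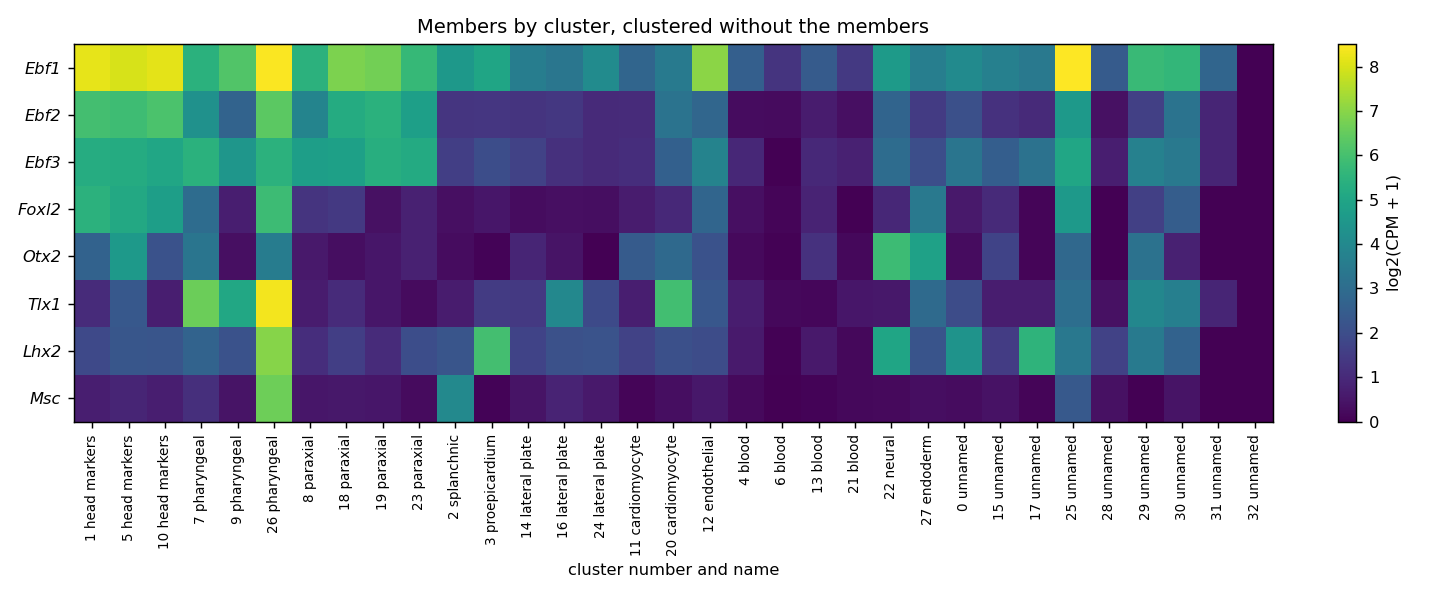
Level of each member in each of the 33 clusters as log2(CPM + 1), on 1 colour scale for all members from 0 (dark) to the highest value plotted (yellow); columns are clusters, with clusters 1, 5 and 10 first and the others grouped by name. The Ebf genes and Foxl2 are bright in clusters 1, 5 and 10 and in cluster 26. In cluster 26, Ebf2, Ebf3, Foxl2, Tlx1 (324 CPM), Lhx2 (123 CPM) and Msc (98.3 CPM) have their highest values. The Ebf genes are bright in the paraxial mesoderm-like clusters 18 and 19 too, where Foxl2 is dark (1.65 and 0.318 CPM).

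Genotype and stage were unevenly spread over these 3 clusters. At E9.5, cluster 1 held 8.76 ± 9.51% of control cells and 0.914 ± 1.12% of mutant cells, cluster 5 held 0.0438 ± 0.0702% and 9.73 ± 3.12%, and cluster 10 held 6.03 ± 6.12% and 1.90 ± 2.26% (SD, n = 5 and 6, samples of 50 or more cells). Cluster 5 also held 9.33 ± 1.60% of E8.0 control cells and 10.7 ± 0.416% of E8.0 mutant cells (SD, n = 3 and 3). Run 1 gave 90.4% of the cells of cluster 1, 89.4% of cluster 5 and 1.55% of cluster 10. The runs were not aligned before clustering, so run and kind of cell cannot be told apart between clusters 1 and 10. Summed, the 3 clusters made up 14.8 ± 5.47% of E9.5 control cells and 12.5 ± 3.25% of E9.5 mutant cells. These shares are a description, since the genes that define the clusters differ between the genotypes and clusters 1 and 10 also split by run.

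Within the 3 clusters, in samples with at least 20 such cells, all E9.5 mutants lay under the controls for Foxl2. The share of all genes that separate so was not counted. The 4 controls lay at 32.1, 40.8, 41.4 and 50.4 CPM and the 5 mutants at 4.17, 8.09, 11.2, 17.8 and 21.1 CPM. The means were 41.2 ± 7.48 CPM (SD, n = 4) and 12.5 ± 6.94 CPM (SD, n = 5), and the fitted log2 change was −1.89 (SE 0.27, edgeR adjusted p = 0.000154). It stayed past the threshold in all 9 fits that left out 1 sample (−2.35 to −1.57). Between 27.7% and 35.9% of the control cells and between 5.68% and 14.3% of the mutant cells had a Foxl2 UMI. Control cells here came mostly from clusters 1 and 10 and mutant cells from cluster 5, so a lower level in like cells and a different mix of cells cannot be told apart. At E8.0, where both genotypes lay in cluster 5, Foxl2 was at 37.2, 48.0 and 59.0 CPM in controls and at 37.9, 42.3 and 75.6 CPM in mutants, overlapping groups. At E8.5 the larger control lay at 18.3 CPM and the mutant at 9.26 CPM. In cluster 5 alone the mutants lay at 38.6, 43.3 and 78.8 CPM at E8.0 and at 7.57 ± 5.75 CPM at E9.5 (SD, n = 4), with no test of that step. Among the 48 clusters of a finer clustering these stages stood apart. A cluster of 243 cells led by S100a6, Fst and Hlf was 90.5% E8.0 cells and had Foxl2 at 67.5 CPM. It had 6 of 8 head mesenchyme markers raised. A cluster of 312 cells led by Ndufa4l2 and Ddit4 was 88.5% E9.5 cells and 99.0% mutant, with Foxl2 at 7.40 CPM. That cluster had 3 of 8 head mesenchyme markers raised, under the minimum of 4 used above, and 5 of 6 paraxial mesoderm markers. A change of level within 1 kind of cell and a change of cells cannot be told apart here.

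Ebf1 fell less in these clusters than Foxl2. The E9.5 controls lay at 276, 285, 317 and 322 CPM and the mutants at 182, 232, 236, 267 and 285 CPM. The log2 change was −0.38 (SE 0.11, edgeR adjusted p = 0.0194), and the call was lost without control Bar22 (edgeR adjusted p = 0.0718) or control Bar23 (0.163). Ebf2, at 62.1 to 68.8 CPM in controls and 45.8 to 67.4 CPM in mutants, did not pass here (−0.25, edgeR adjusted p = 0.188). Ebf3 lay at 28.6 to 38.3 CPM in controls and spread from 24.3 to 62.1 CPM in mutants (0.40, SE 0.18, edgeR adjusted p = 0.124). The runs went opposite ways: in run 1 the mutants lay at 39.8, 59.6 and 62.1 CPM, above the controls at 36.4 and 38.3 CPM, and in run 3 the mutants lay at 24.3 and 26.7 CPM, under the control at 35.8 CPM. Ebf3 was called higher when control Bar9 was left out (0.52, edgeR adjusted p = 0.0405).

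**Figure D4:**
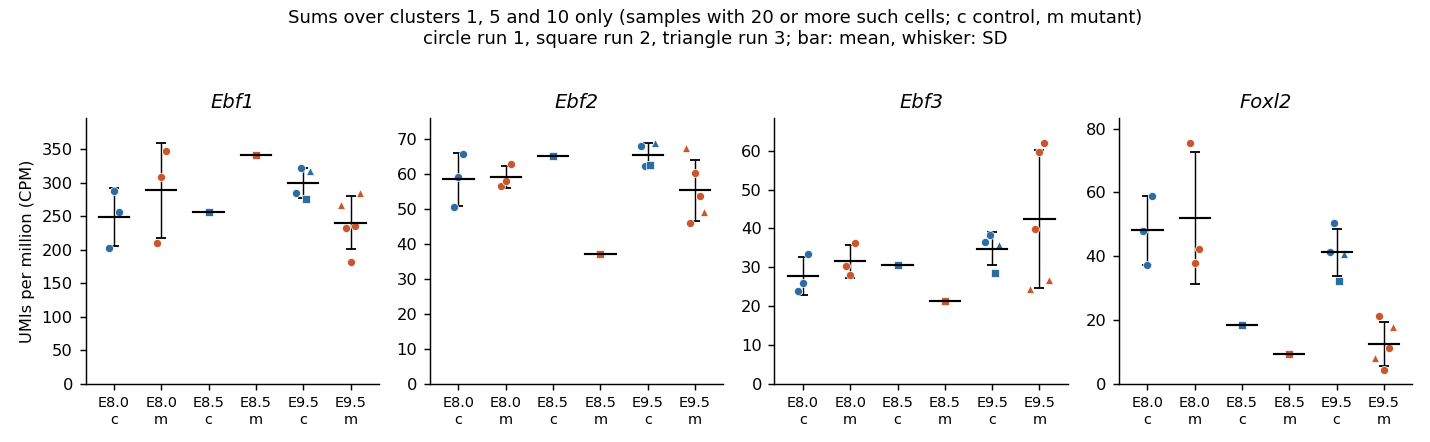
Ebf1, Ebf2, Ebf3 and Foxl2 in clusters 1, 5 and 10 only, per barcode sample with at least 20 such cells, in CPM on linear axes from 0 (blue control, orange mutant; circles run 1, squares run 2, triangles run 3; bar mean, whisker 1 SD). The 5 E9.5 mutant samples lie at 4.17 to 21.1 CPM for Foxl2, under all 4 E9.5 controls, and the E8.0 groups overlap.

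At E9.5, 2 of the 6 members tested in these clusters were called lower and none higher, where 17.6% of 11834 genes were called. Over all stages Foxl2 was called lower in them (log2 change −0.88, SE 0.27, edgeR adjusted p = 0.0444), 1 of 7 members tested, where 10.9% of 12215 genes were called. That call was lost with DESeq2 (−0.97, adjusted p = 0.0788) and in 12 of 17 fits that left out 1 sample (controls Bar3, Bar9, Bar22 and Bar23 and mutants Bar1, Bar8, Bar10, Bar19, Bar20, Bar21, Bar27 and Bar28). Of 21 other head mesoderm genes tested at E9.5 in these clusters, 4 were called higher and 7 lower. Six2 fell by 1.01, Alx4 by 0.98 and Tbx1 by 0.47, and Foxd2 rose by 0.52 on the log2 scale. In the same fit 5 of 6 paraxial mesoderm markers were called higher in mutants (median log2 change 2.34), as were 3 of 4 proepicardium markers. Their part in the members' values was not tested.

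Otx2 was also present in clusters 1, 5 and 10, and there its E8.0 levels lay above the later ones. The 6 E8.0 samples lay at 20.6 to 50.5 CPM, the 2 E8.5 samples at 1.85 and 2.10 CPM and the 9 E9.5 samples at 3.27 to 17.8 CPM, so the E8.0 samples did not overlap with the others. The share of all genes that separate so was not counted. The E8.0 cells came mostly from cluster 5 and the E9.5 control cells from clusters 1 and 10. A lower level in like cells and a different mix of cells cannot be told apart here. All E8.0 samples were in run 1 and the E8.5 samples in run 2, so stage and run cannot be told apart between them. Its highest level was in the neural-like cluster (55.7 CPM, 21.4% of 304 cells), which held 26.3% of its UMIs, and endoderm or epithelium-like cells reached 27.9 CPM. Without neural-like and endoderm or epithelium-like cells, the drop of Otx2 from E8.0 to E9.5 was −2.31 on the log2 scale (edgeR adjusted p = 3.17e-07).

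Tlx1, Lhx2 and Msc had their highest levels in a pharyngeal mesoderm-like cluster of 176 cells led by Kazald1, Edn1, Tcf21 and Tbx1, in which all 6 pharyngeal mesoderm markers were raised (cluster 26). It held 988 of 3799 Tlx1 UMIs, 374 of 3077 Lhx2 UMIs and 300 of 627 Msc UMIs. Tlx1 reached 324 CPM there (95% exact Poisson interval 304 to 345, counting error only) with a UMI in 67.6% of cells. Lhx2 reached 123 CPM (111 to 136) in 55.7% of cells and Msc 98.3 CPM (87.5 to 110) in 54.0%. Among the 33 clusters this one also held the highest levels of Ebf2 (81.6 CPM), Ebf3 (42.9 CPM) and Foxl2 (55.4 CPM). For Ebf3, clusters 7 (42.0 CPM), 19 (39.4 CPM), 1 (37.6 CPM) and 5 (36.7 CPM) lay inside its counting interval of 35.9 to 50.9 CPM, and cluster 23 (35.9 CPM) at its edge. Ebf1 lay at 353 CPM in it, beside 363 CPM (326 to 404) in cluster 25, which is led by mitochondrial transcripts and had a median of 3189 UMIs per cell. The first value lies inside the interval of the second. At a finer resolution of 48 clusters the highest levels of Ebf3 (67.0 CPM) and Foxl2 (67.5 CPM) lay in other clusters.

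The cluster was a late one. It held none of the E8.0 control cells and 1 E8.0 mutant cell, 1.87% of the larger E8.5 control sample, 2.26% of the E8.5 mutant sample, 2.00 ± 1.03% of E9.5 control cells (SD, n = 5) and 1.75 ± 1.89% of E9.5 mutant cells (SD, n = 6). In the 3 E9.5 control samples with at least 20 of its cells, Tlx1 lay at 162, 362 and 385 CPM, Lhx2 at 97.4, 140 and 217 CPM and Msc at 64.7, 70.4 and 116 CPM. No E9.5 mutant sample had more than 10 of its cells, so the genotypes were not compared there.

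Outside that cluster the 3 genes parted. Tlx1 was highest in another pharyngeal mesoderm-like cluster (cluster 7, 96.8 CPM), which was led by Igfbpl1, Fgf8 and Nkx2-6, and in a cardiomyocyte-like cluster led by Tdgf1 and Myh7 (59.6 CPM). Pharyngeal mesoderm-like cells, cluster 26 included, held 71.8% of Tlx1 UMIs and 51.2% of Msc UMIs, and of their 321 Msc UMIs 300 lay in cluster 26. Msc had a smaller site in splanchnic mesoderm-like cells (14.9 CPM, 12.8% of 763 cells), which held 33.5% of its UMIs. Among the 33 clusters, Lhx2 had its largest share, 29.2% of UMIs, in the proepicardium-like one (900 UMIs, 62.1 CPM, 37.7% of 749 cells). The proepicardium is the source of the epicardium. In the finer clustering, a proepicardium-like cluster led by Alcam and Plagl1 (5 of 6 markers raised) held 740 Lhx2 UMIs, at 95.2 CPM. The one led by Lhx9 and Upk3b, with 6 of 6 raised, held 32, at 10.2 CPM. Lhx2 was also held by a cluster led by Gal, Lhx9 and Hoxd9 (528 UMIs, 45.0 CPM) and by neural-like cells (30.8 CPM). A cluster led by Gm14226, Lix1 and Gal held 432 of its UMIs, at 19.6 CPM. Run 1 gave 94.5% of the cells of that cluster and 1.25% of those of the cluster led by Gal, Lhx9 and Hoxd9. At E9.5, in proepicardium-like cells of samples with at least 20 of them, Lhx2 lay at 66.1 ± 28.2 CPM in controls and 36.4 ± 15.6 CPM in mutants (SD, n = 4 and 4, overlapping), while these cells made up 3.46 ± 2.12% of control and 10.3 ± 3.91% of mutant cells (SD, n = 5 and 6). Neither difference was tested.

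The EBF genes reached further. Endothelial-like cells held Ebf1 at 130 CPM, with a UMI in 70.5% of 546 cells, and little Ebf2 (5.94 CPM, 7.69% of cells). Paraxial mesoderm-like cells held all 3, at 75.4 CPM for Ebf1, 28.1 CPM for Ebf2 and 31.2 CPM for Ebf3. Across the 33 clusters, over 10069 genes that reached 20 CPM in at least 1 cluster, the 3 paralogs were among each other's most alike genes. On log2(CPM + 10) the Pearson r was 0.901 for Ebf2 and Ebf3, 0.881 for Ebf1 and Ebf2 and 0.880 for Ebf1 and Ebf3. Sobp (0.856) completed the 3 genes nearest to Ebf1 and Itih5 (0.847) those nearest to Ebf2. These values describe clusters that share libraries and carry no test.

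The other members had other neighbours. Foxl2 was most like Crym (0.846), Tbx1 (0.832) and Hlf (0.830), and Otx2 most like Tfap2b (0.837), ccdc198 (0.814) and Sox2 (0.808), the last a neural marker. Tlx1 followed Kazald1 (0.956), Nkx2-6 (0.929) and Palmd (0.896), and Msc followed Syt17 (0.893), Kcnj12 (0.887) and Col25a1 (0.868). Lhx2 had the weakest likeness, to Cyp1b1 (0.748), Gna14 (0.705) and Ntrk2 (0.682). No member other than the EBF genes was among another member's 3 nearest genes.

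Within cells, at least 1 member was detected in 54.7% of all cells, in 96.2% of the cells of clusters 1, 5 and 10, in 98.9% of cluster 26 and in 12.5% of blood-like cells. At least 5 members were detected in 1.52% of all cells, 4.40% of clusters 1, 5 and 10, 47.7% of cluster 26 and no blood-like cell. All 8 were detected in 5 cells, 3 of them in cluster 26.

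Pairs of members were then compared in cells thinned to 5000 UMIs, as the share of cells with both over the product of their single shares. Ebf1 and Ebf2 occurred together 2.80 times as often as that product over all cells (2.35 to 4.48 in 18 samples of at least 100 cells), and Ebf1 and Foxl2 2.83 times (2.20 to 6.44). The ratios of Ebf2 with Foxl2 (2.86), Ebf2 with Ebf3 (2.47) and Ebf1 with Ebf3 (1.95) were also over 1 in each of the 18 samples. Ebf1 with Lhx2 stood at 1.00. The highest ratio among pairs with at least 5 expected cells was that of Foxl2 with Otx2 (4.43, over 1 in 16 of 18 samples). Under that number of expected cells, Tlx1 with Msc stood at 5.47 (4.76 expected, over 1 in 15 of 18) and Foxl2 with Msc at 4.80 (2.84 expected). Without blood-like cells the order turned, with Tlx1 and Msc at 4.64 (5.62 expected) and Foxl2 and Otx2 at 3.87. Inside clusters 1, 5 and 10 most of the excess of the Ebf and Foxl2 pairs was gone. Ebf1 and Ebf2 stood at 1.13 (over 1 in 16 of 16 samples), Ebf1 and Foxl2 at 0.960, Ebf2 and Foxl2 at 0.811 and Ebf3 and Foxl2 at 0.732. Foxl2 and Otx2 stood at 1.45. Inside cluster 26, Foxl2 and Lhx2 stood at 1.40 (over 1 in 4 of 4 samples) and Tlx1 and Msc at 0.780. These ratios are descriptions, since the cells of a sample share their library.

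**Figure D5:**
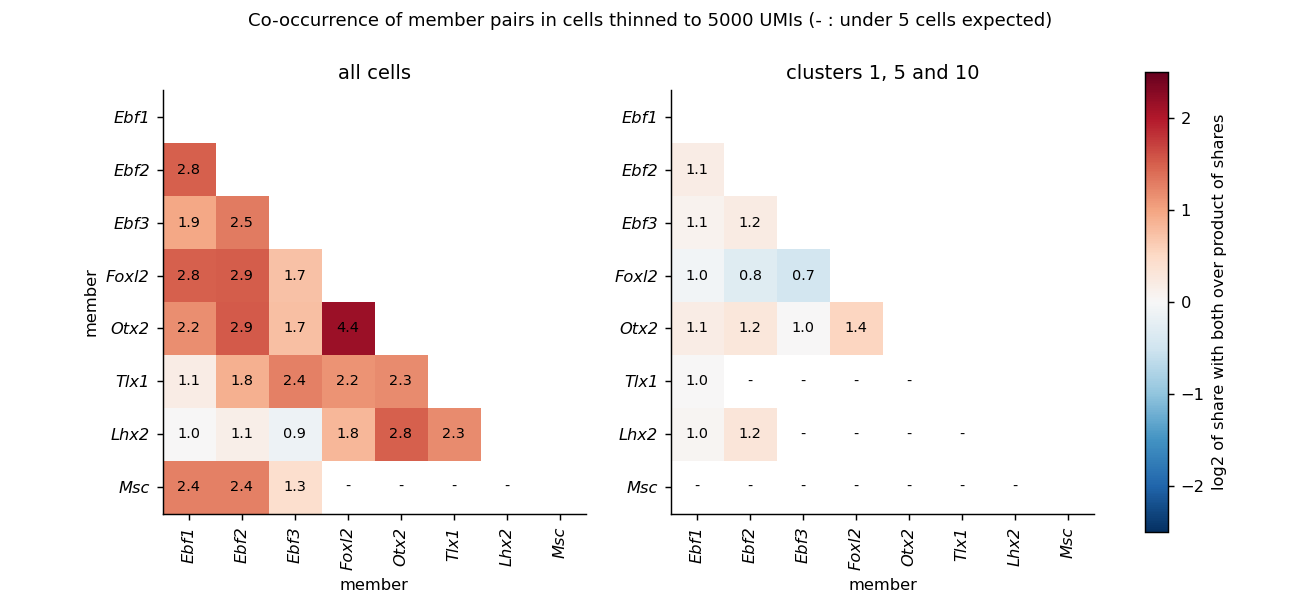
Ratio of the share of cells with UMIs of both members to the product of their single shares, in cells thinned to 5000 UMIs, over all cells and in clusters 1, 5 and 10; colour is the log2 of the printed ratio, and a dash marks pairs with under 5 cells expected. Foxl2 with Otx2 has the highest printed ratio over all cells (4.43), while Tlx1 with Msc (5.47, with 4.76 cells expected) falls under a dash. Pairs of Foxl2 with the Ebf genes lie at or under 1 in the clusters.

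The share of cells with a UMI was also taken at E9.5. After thinning to 5000 UMIs per cell, Foxl2 was detected in 3.33 ± 1.12% of control cells and 1.06 ± 0.460% of mutant cells (7.14 ± 2.41% and 2.46 ± 0.893% without thinning). Ebf2 was detected in 6.99 ± 2.05% and 4.42 ± 1.87% of thinned cells and Ebf1 in 21.6 ± 5.36% and 16.5 ± 2.39%, while Tlx1 stood at 4.61 ± 0.845% and 4.92 ± 1.58%, in the opposite order to the shares without thinning (means of 8.17% and 7.70%). Ebf3 was detected in 6.74 ± 3.00% and 6.19 ± 2.27% of thinned cells (SD, n = 5 and 6, samples of 50 or more cells). The groups overlapped for all 8 members, and no test was run on these shares.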

How the data were processed

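Counts were used as deposited: per the labels, the authors mapped the reads with kallisto and bustools and assigned cells by MULTI-seq barcode, and the submitters' processing notes name GRCm38, bustools 0.46.1 and Cell Ranger. The annotation, strand setting and cell filters are not given in the sources used here. The deposited cell table calls the control wildtype and the mutant knockout. The members and gene lists were chosen with earlier results of these data known.

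UMI counts were summed per barcode sample and tested with edgeR 4.0.16 (R 4.3.3; filterByExpr, TMM, quasi-likelihood F test, two-sided, Benjamini-Hochberg over all genes tested, adjusted p under 0.05). Run was a covariate at E9.5, in the interaction and with stages together; the change between stages had genotype as covariate. Alternatives were DESeq2 1.42.0, RLE size factors, no filter, subsets of cells, runs and samples, and each sample left out. Sample totals ran from 134457 to 61307782 UMIs. Cells were clustered with scanpy 1.11.5 (2000 variable genes without the members, 30 components, 20 neighbours, leiden resolution 1) and named from fixed markers. Apart from the choice of variable genes, the clustering did not correct for run. Scrublet called 79 doublets (0.535%), kept except in 1 alternative. Thinned shares are exact expectations. The scripts were tested on simulated data. Named genes were the members, the 3 genes most like each across clusters and, per comparison, up to 6 of the head mesoderm list by smallest p. Some genes that this rule names are not reported here. The planned fit in head mesenchyme-like cells was replaced by one in clusters 1, 5 and 10. The E7.5 sample entered no genotype test at its stage.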

Additional observations from a re-analysis of the deposited data

Results flagged for a closer look

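Otx2 in E9.5 control Bar6 lay at 29.7 CPM, far from the other 5 controls (1.93 to 8.79 CPM). The value rests on 4 UMIs in 1 of its 6 cells, with an exact Poisson interval of 8.11 to 76.2 CPM. Msc in clusters 1, 5 and 10 lay at 2.70 CPM in E9.5 mutant Bar10, against 0 to 0.603 CPM in the other mutants. It is 1 UMI in 40 cells, and no E9.5 mutant sample held more than 1 Msc UMI there. Of 32 groups of samples looked at, these 2 had a sample that stood apart, and chance gives about 1 in 20.

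The genotype difference itself changed between E8.0 and E9.5 for 2 of the 24 genes of the head mesoderm list, where 0.464% of 17872 genes were called. Over all genes 83 were called, and 29 without mutant Bar25. Alx1 had a log2 interaction of 1.07 (SE 0.20, edgeR adjusted p = 0.0210), from −0.36 at E8.0 to 0.70 at E9.5. Six2 had −1.04 (SE 0.22, edgeR adjusted p = 0.0417), from 0.40 at E8.0 to −0.64 at E9.5.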

How the results depend on the processing

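Of 365 values for members under other settings (samples left out one at a time not counted), 332 kept their direction and side of the threshold, 4 lost a call, 8 gained one and 21 changed sign, none of these called; the cause was not tested. With stages together, 2132 genes were called (931 higher, 1201 lower; DESeq2 1726 and 1290; RLE size factors 1441 and 966), against 2 in run 1 alone, with 0 members called, and 1380 with no term for run. At E8.0, 4 genes were called, 37 with DESeq2 and 35 with no filter. For the interaction, 83 were called, 341 with DESeq2 (2 members), 669 with no filter (3 members) and 32 in run 1 alone. Without blood-like and endothelial-like cells 156 were called (1 member), and without neural-like and endoderm-like cells 89 (1 member). In clusters 1, 5 and 10, 1327 genes were called, and 1326 with DESeq2 (0 members). At E9.5 there, 2077 genes became 1075 with no filter. At E9.5, 1766 genes were called, 2576 with DESeq2 (2 members), 2566 with no filter (4 members, with Msc at −0.90) and 1283 in run 1 alone (2 members).

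Signs changed as follows. Stages together: Ebf3 0.03 (DESeq2), 0.02 (RLE), 0.07 (run 1 alone, and no run term); Otx2 −0.19 (DESeq2), −0.25 (run 1 alone); Lhx2 −0.02 (no filter, without neural-like and endoderm-like cells, and without samples under 50 cells), −0.05 (without blood-like and endothelial-like cells), −2.47e-05 (without doublets). E8.0: Foxl2 −0.10 (without blood-like and endothelial-like cells) and −0.00817 (without neural-like and endoderm-like cells), Otx2 −0.17 (the latter setting). E9.5: Otx2 0.02 (without neural-like and endoderm-like cells), Lhx2 −0.04 (no filter), −0.00569 (without doublets), −0.00559 (without samples under 50 cells). Interaction: Otx2 0.21 (without neural-like and endoderm-like cells). Clusters 1, 5 and 10, samples of at least 50 such cells: Lhx2 0.08, and Otx2 −0.15 at E9.5.

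Leaving out 1 sample gave these ranges. Stages together: 1259 (Bar23) to 2481 genes, 0 to 1 members, Ebf3 −0.10 to 0.06, Otx2 −0.25 to 0.17, Lhx2 −0.15 to 0.21. E8.0: 1 to 10 genes, Foxl2 −0.37 to 0.24, Otx2 −0.16 to 0.41, Tlx1 0.53 to 1.40. E9.5: 604 (Bar23) to 2344 genes, with 704 without Bar22, 1099 without Bar19 and 1113 without Bar9; 1 to 3 members, Ebf3 −0.21 to 0.02, Lhx2 −0.24 to 0.23, Otx2 −0.97 to −0.33, Msc −1.38 to −0.48. Interaction: 29 (Bar25) to 134 (Bar20) genes, 0 to 2 members. Between stages, Ebf1 was called without Bar20 (0.51). Clusters 1, 5 and 10: 438 (Bar23) to 1668 genes, 0 to 1 members, Ebf1 −0.13 to 0.00540, Otx2 −0.28 to 0.04, Lhx2 −0.10 to 0.08; at E9.5, 640 (Bar23) to 2375 genes, 1 to 3 members, Otx2 −0.18 to 0.37.

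Without thinning the E9.5 differences in share (mutant minus control) were −7.04 points for Ebf2, −4.19 for Ebf3 and −4.68 for Foxl2, against −2.57, −0.54 and −2.27. The Ebf1 and Ebf2 ratio was 2.13 without thinning. At 48 clusters the highest levels were 67.0 CPM for Ebf3, 67.5 for Foxl2 and 66.3 for Otx2. No paired analysis was possible because the barcodes carry no replicate numbers shared between genotypes. Sparse members (Msc, Otx2) and samples of few cells limit what could be detected.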
